A study of Homo sapiens with 12 samples.

Results

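The genes described here carry the MHC class I antigen presentation pathway. They are the heavy chains HLA-B, HLA-C and HLA-E, the light chain B2M, the peptide loading genes TAP1, TAP2 and TAPBP, the immunoproteasome subunit PSMB9 and the transactivator NLRC5. They were chosen by name and not by a cut on a measured value, but with earlier results of these data known. Of them, 9 of 9 were found among the 60623 genes of the deposited count table, with 1 entry each. All 9 passed the filter on low counts that left 23684 genes for testing. RNA was measured in COLO320DM and SW480, a pair of established human colorectal cancer lines, after transfection with pCMV6-HKDC1, which carries the hexokinase family gene HKDC1, or with the empty vector pCMV6-Entry. Each of the 4 groups (COLO320DM with pCMV6-Entry, COLO320DM with pCMV6-HKDC1, SW480 with pCMV6-Entry, SW480 with pCMV6-HKDC1) had 3 libraries. All groups received 10 µg of plasmid with a lipid reagent for 24 hours, so no group shows untransfected cells, and all were grown in medium with fetal bovine serum. The study asked which expression changes after HKDC1 overexpression could bear on proliferation. Each line is a single line, so a difference between the lines holds for this pair and not for a class of tumours.

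Class I molecules are cell-surface complexes of a polymorphic heavy chain, β2-microglobulin and a short peptide, and they show the protein content of a cell to cytotoxic T cells. Proteasomes, including the immunoproteasome with its exchanged catalytic subunits, cut proteins into peptides, the TAP transporter carries these into the endoplasmic reticulum, and tapasin (TAPBP) bridges TAP and the empty heavy chain. NLRC5 acts with the RFX complex, CREB and ATF factors and NF-Y on the shared upstream module of class I promoters, while interferon and NF-κB factors act on neighbouring elements. Loss of heavy chains, of B2M or of loading genes is a known way for colorectal tumours to lose recognition by T cells.

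Stretches upstream of 4 members were read from RefSeq (GRCh38.p14), to show the elements that their regulators are known to bind beside the levels of those regulators given later. HLA-B, HLA-C and PSMB9 are shown because they differed most between the lines, and B2M because it moved the opposite way. Of the 9 members, 7 had a promoter entry (not HLA-E or NLRC5). Each stretch below lies within 250 bases upstream of the annotated start, leaves out bases that fall in an exon of a protein-coding gene, and runs 5′ to 3′ on the gene's own strand. Capitals mark matches on either strand to the searched letters. These were, for the interferon-stimulated response element, GAAANGAAA or a pair of GAAA with 2 bases of any kind between them. GGGNNTTCC stands for NF-κB, TGACG for the core of the cAMP response element, CCAAT for the box bound by NF-Y, and TTCNNNGAA for the gamma-activated site. Overlapping matches were all marked.
HLA-B, minus strand, chr6:31357189-31357429: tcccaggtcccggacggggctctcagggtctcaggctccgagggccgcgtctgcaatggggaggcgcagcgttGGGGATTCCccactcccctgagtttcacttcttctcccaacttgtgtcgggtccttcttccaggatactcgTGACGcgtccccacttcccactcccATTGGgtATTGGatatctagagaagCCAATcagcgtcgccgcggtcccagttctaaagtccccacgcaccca
HLA-C, minus strand, chr6:31272131-31272342: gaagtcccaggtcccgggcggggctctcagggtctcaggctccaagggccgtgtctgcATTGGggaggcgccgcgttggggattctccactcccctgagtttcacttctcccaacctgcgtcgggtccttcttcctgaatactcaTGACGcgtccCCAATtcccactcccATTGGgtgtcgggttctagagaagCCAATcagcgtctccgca
B2M, plus strand, chr15:44711317-44711486: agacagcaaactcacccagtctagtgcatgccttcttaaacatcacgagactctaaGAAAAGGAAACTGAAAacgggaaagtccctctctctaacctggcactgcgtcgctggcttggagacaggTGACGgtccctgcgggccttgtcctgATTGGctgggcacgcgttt
PSMB9, plus strand, chr6:32853979-32854147: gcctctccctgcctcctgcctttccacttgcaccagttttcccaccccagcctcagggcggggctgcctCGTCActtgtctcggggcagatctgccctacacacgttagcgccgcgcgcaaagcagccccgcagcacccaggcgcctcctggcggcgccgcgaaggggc
The HLA-B stretch holds the NF-κB letters 177 to 169 bases upstream of the start, TGACG 106 to 102 bases upstream, and CCAAT in 3 places. HLA-C holds TGACG at nearly the same distance (105 to 101 bases) and CCAAT in 4 places, and no match to the NF-κB letters in this window. B2M holds a pair of overlapping matches to the GAAA pair with the 2-base gap, between 144 and 129 bases upstream. These are matches of letters and not measured binding. Among 35116 promoters, in the same 250 upstream bases, the GAAA pair with the 2-base gap occurred in 3.0% (in B2M, TAP1, TAP2 and TAPBP among the members), GGGNNTTCC in 5.8% (HLA-B and TAPBP) and TTCNNNGAA in 6.6% (TAP1). TGACG occurred in 21.2% (B2M, HLA-B, HLA-C, PSMB9 and TAP2) and CCAAT in 32.0% (B2M, HLA-B, HLA-C, PSMB9 and TAP1). GAAANGAAA occurred in 2.7% of promoters and in no member.

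Of the members, 7 lie in the MHC region of chromosome 6, B2M lies on chromosome 15 (44711487–44718877, plus strand) and NLRC5 on chromosome 16 (56989485–57083531, plus strand), all on GRCh38. TAP1 (32845209–32853978, minus strand) lies within the span of PSMB9 (32844136–32859851, plus strand) on the opposite strand, and TAP2 lies beside them (32821833–32838770, minus strand). HLA-C (31268749–31272130, minus strand) overlaps the span given for HLA-B (31269491–31357188, minus strand), although their exons share only 35 bases. HLA-E (30489509–30494194, plus strand) and TAPBP (33299694–33314387, minus strand) flank this stretch. Counting could not be separated everywhere. Exons of TAP2 share 2054 bases (32.2%) with a same-strand gene, ENSG00000250264, and exons of TAP1 share 577 bases (12%) with PSMB8-AS1 on the opposite strand. Exons of PSMB9 share 139 bases with PSMB8 on the opposite strand and 174 with PSMB8-AS1. Exons of HLA-B share 542 bases (17.8%) with a pseudogene on the opposite strand, ENSG00000271581. Of the 50-base windows of HLA-B transcripts, 17.8% also occur in another gene's transcripts, and 15.1% occur in those of this pseudogene. The share was 5.7% for HLA-C, 4.87% for HLA-E and 0% for B2M and NLRC5. The HLA-B and HLA-C values are uncertain for a further reason, since reads were placed on 1 reference allele per gene, and how well the alleles of each line match it was not tested.

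Library totals ranged from 33790733 to 45451279 counts. The transfected gene followed the labels, with 0, 1 and 1 HKDC1 counts in COLO320DM with empty vector against 269799 to 333102 with the plasmid, and 1275 to 1549 against 477515 to 499910 in SW480. Of the colon epithelial markers, SW480 held 7 of 7 at or above 1 CPM, the usual count scaled to a common library size, with 6291 to 8815 CPM in sum. COLO320DM held 5 of 7 with 1577 to 1790 CPM in sum, most of it CDX2, while CDH1 was at or near 0 and EPCAM below 3 CPM. Of 9 haematopoietic markers, 3 reached 1 CPM in COLO320DM (34.9 to 45.3 CPM in sum, chiefly PTPRC) and 1 in SW480 (7.86 to 14.5 CPM in sum), with MS4A1 at 0 throughout. Endothelial markers summed to at most 1.14 CPM. The 4 fibroblast markers summed to 12.5 to 17.5 CPM in COLO320DM and 2.49 to 5.31 CPM in SW480. The 4 neuroendocrine markers summed to 26.6 to 37.0 CPM in COLO320DM and 61.0 to 82.6 CPM in SW480. The part of these markers in the differences between the lines was not tested. Replicate 1 stood apart from replicates 2 and 3 in all 4 groups, and its values are given for each member. The labels do not say that the replicates are separate cultures, so p-values measure the spread between these libraries, which may be technical.

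The lines differed most in the classical heavy chains. All levels below are CPM scaled by TMM, listed for replicates 1, 2 and 3, and log2 fold changes are SW480 over COLO320DM from edgeR's quasi-likelihood test, with Benjamini-Hochberg adjustment over all 23684 genes. HLA-C, a classical heavy chain that also engages killer-cell receptors, had 8.67, 9.68 and 9.79 CPM in COLO320DM with empty vector and 8.46, 8.09 and 10.1 CPM with the HKDC1 plasmid. In SW480 it had 158, 190.4 and 198 CPM with empty vector and 154, 183 and 199 CPM with the plasmid. Every SW480 library was above every COLO320DM library, and with empty vector the log2 fold change was 4.28 (SE 0.14, adjusted p = 1.53e-11), a 19.4-fold difference with a 95% interval of 15.8 to 23.9. HLA-B, the other classical heavy chain of the set, had 10.0, 12.1 and 12.9 CPM in COLO320DM with empty vector and 10.7, 11.8 and 12.6 with the plasmid. SW480 had 77.4, 117 and 114 CPM with empty vector and 74.4, 101 and 104 with the plasmid. The lines did not overlap, and the difference was 8.80-fold (6.72 to 11.5; log2 3.14, SE 0.18, adjusted p = 3.88e-09). How many of all genes also did not overlap between the lines was not counted, while 71.6% of all genes were called with empty vector. Lack of overlap, here and below, therefore describes each gene only and does not set it apart from other genes.

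HLA-E, a non-classical heavy chain that presents leader peptides of other class I chains to natural killer cells, differed less. It had 22.9, 31.7 and 32.7 CPM in COLO320DM with empty vector and 25.7, 31.9 and 31.3 with the plasmid. SW480 had 41.6, 53.1 and 51.1 CPM with empty vector and 38.2, 45.4 and 50.5 with the plasmid. The 6 libraries of each line still did not overlap (22.9 to 32.7 against 38.2 to 53.1), and the difference was 1.67-fold (log2 0.74, SE 0.15, adjusted p = 0.000737). B2M, the light chain of every class I molecule, went the other way. It had 346, 356 and 367 CPM in COLO320DM with empty vector and 331, 359 and 349 with the plasmid, against 179, 199 and 209.5 CPM in SW480 with empty vector and 201, 220.2 and 191 with the plasmid. The lines did not overlap here either, and B2M was 1.82-fold lower in SW480 (log2 −0.86, SE 0.09, adjusted p = 1.48e-06).

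**Figure D1:**
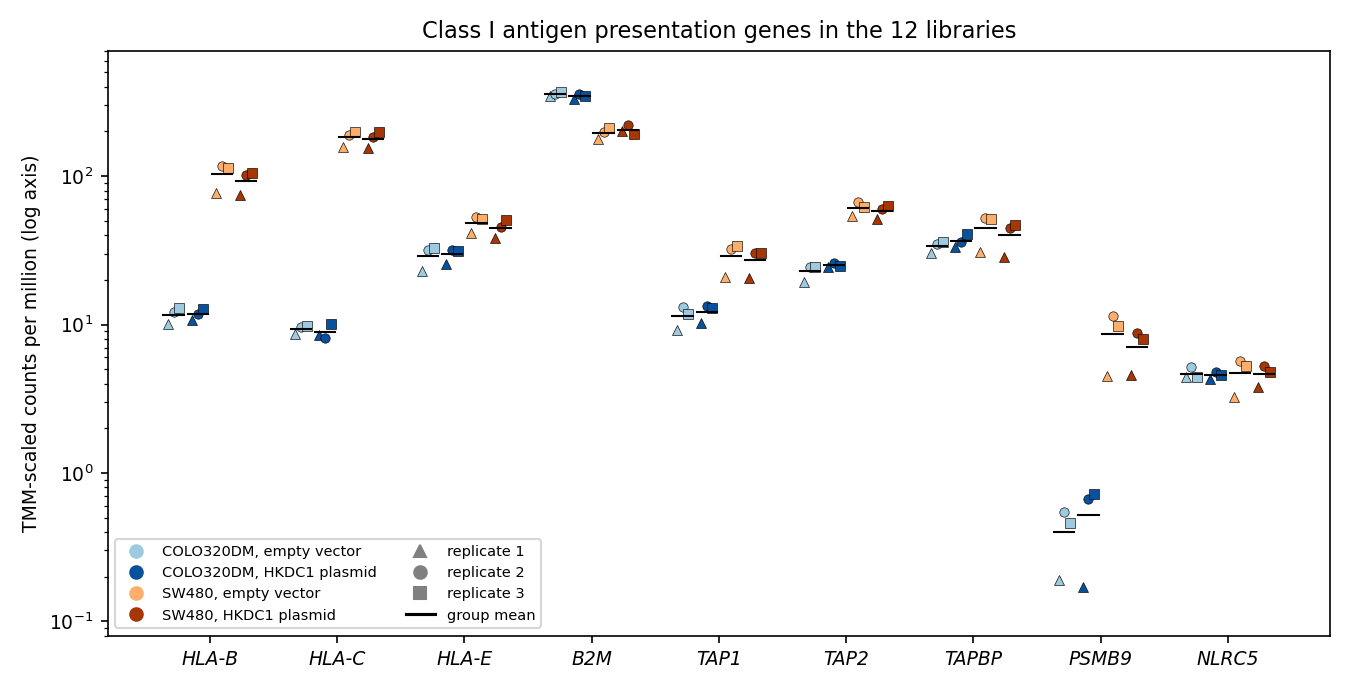
Level of each of the 9 genes in the 12 libraries, as TMM-scaled CPM on a log axis; each point is 1 library (triangle, circle and square for replicates 1, 2 and 3) and the bar is the group mean. SW480 lies above COLO320DM for HLA-B, HLA-C, HLA-E, TAP1, TAP2 and PSMB9 and below it for B2M, and the triangles tend to lie lowest.

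Both subunits of the TAP transporter were higher in SW480. TAP1 had 9.14, 13.2 and 11.8 CPM in COLO320DM with empty vector and 10.2, 13.4 and 12.9 with the plasmid, and 20.9, 32.5 and 34.1 CPM in SW480 with empty vector and 20.6, 30.4 and 30.4 with the plasmid. No SW480 library reached down to the COLO320DM range, and the difference was 2.56-fold (log2 1.35, SE 0.21, adjusted p = 6.83e-05). TAP2 had 19.4, 24.5 and 24.5 CPM, then 24.3, 26.0 and 24.8 CPM, in the same COLO320DM groups, and 54.2, 67.0 and 62.0, then 51.8, 60.0 and 62.8 CPM, in SW480. It did not overlap between the lines and was 2.68-fold higher in SW480 (log2 1.42, SE 0.12, adjusted p = 1.57e-07). The values of TAP2 include any reads of the gene that shares its exons.

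Tapasin and NLRC5 gave no call. TAPBP, which holds empty heavy chains at the transporter, had 30.3, 34.9 and 36.1 CPM in COLO320DM with empty vector and 33.5, 36.0 and 40.8 with the plasmid. SW480 had 30.9, 52.3 and 51.4 CPM with empty vector and 28.5, 44.6 and 47.2 with the plasmid, so its replicate 1 lay within or below the COLO320DM range and the other libraries above it. The log2 fold change was 0.41 (SE 0.20, adjusted p = 0.0893) with empty vector and 0.13 (SE 0.21, adjusted p = 0.599) with the plasmid. Without SW480 empty-vector replicate 1, the empty-vector value was 0.63 (adjusted p = 0.00384), and without SW480 HKDC1 replicate 1, which enters through the shared spread only, it was 0.41 (adjusted p = 0.0428). Without replicate 1 of every group the edgeR values were 0.56 with empty vector (adjusted p = 2.31e-08) and 0.25 with the plasmid (adjusted p = 0.00301). NLRC5, the class I transactivator, had 4.43, 5.15 and 4.42 CPM in COLO320DM with empty vector and 4.32, 4.81 and 4.54 with the plasmid, and 3.24, 5.67 and 5.28 CPM in SW480 with empty vector and 3.78, 5.24 and 4.81 with the plasmid. The lines overlapped, and its log2 fold change was 0.02 with empty vector (SE 0.20, adjusted p = 0.934) and 0.02 with the plasmid. The 95% interval with empty vector was 0.751 to 1.37-fold.

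PSMB9, the immunoproteasome subunit that replaces PSMB6 and is encoded beside TAP1, was the least abundant member in COLO320DM. It had 0.189, 0.548 and 0.463 CPM there with empty vector (8, 23 and 20 counts) and 0.171, 0.672 and 0.724 CPM with the plasmid (7, 24 and 25 counts). SW480 had 4.52, 11.5 and 9.74 CPM with empty vector and 4.58, 8.71 and 8.02 with the plasmid, all above COLO320DM. The difference was 21.3-fold with empty vector, with a wide 95% interval of 10.1 to 45.1 (log2 4.41, SE 0.50, adjusted p = 3.48e-06). Since PSMB9 shares exon bases with PSMB8 and PSMB8-AS1, a part of its few COLO320DM counts may belong to them, which was not tested.

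In all, 6 members were higher and 1 lower in SW480 with empty vector, so 7 of 9 were called, beside 71.6% of all genes tested (37.3% higher and 34.3% lower). A count of 7 of 9 is near that background. The members' median log2 fold change was 1.35 beside 0.04 for all genes, and their median absolute value was 1.35 beside 0.86. The HKDC1-plasmid libraries gave the same 7 calls in the same directions, beside 70.8% of all genes (37.4% higher and 33.5% lower). They share no library with the empty-vector comparison, but both comparisons use the same lines and 1 fit with a shared spread, so they are not independent. There the log2 fold changes were 4.33 for HLA-C, 3.79 for PSMB9, 2.99 for HLA-B, 1.22 for TAP2, 1.16 for TAP1, 0.59 for HLA-E and −0.76 for B2M (adjusted p from 1.58e-11 to 0.00377).

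**Figure D2:**
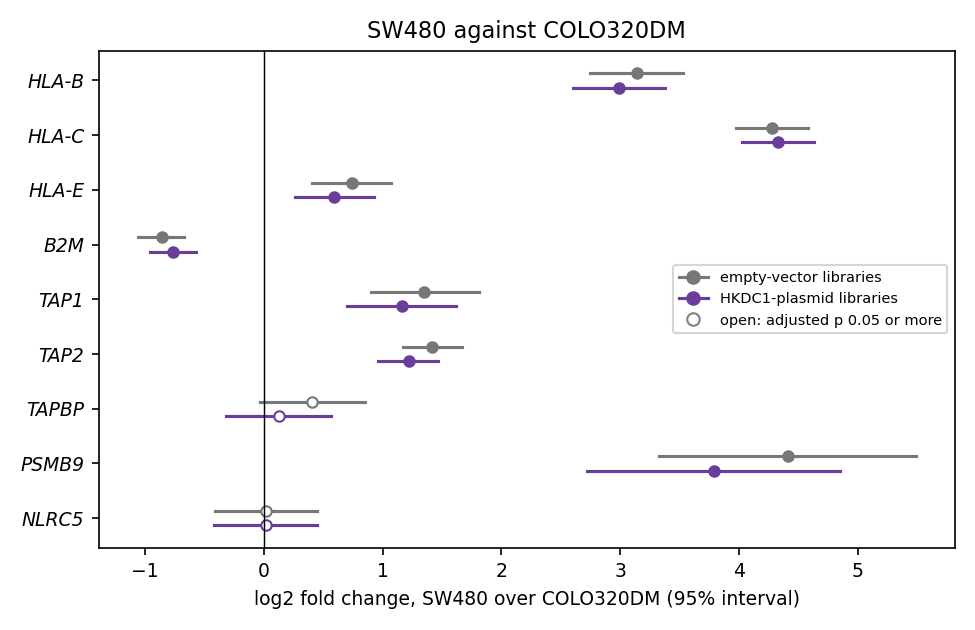
Fitted log2 fold change of SW480 over COLO320DM for each gene (x axis) with its 95% interval, in the empty-vector libraries and in the HKDC1-plasmid libraries; filled points had adjusted p below 0.05. HLA-C, PSMB9 and HLA-B lie farthest to the right, B2M lies left of 0, and TAPBP and NLRC5 are open.

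The order of the members also differed between the lines. Compared as CPM per kilobase of exon, B2M led in COLO320DM with 58.6 ± 1.75 (SD, n = 3, empty vector), followed by HLA-E (9.95 ± 1.84) and TAPBP (6.68 ± 0.602). HLA-B (3.83 ± 0.485), HLA-C (3.74 ± 0.245) and TAP2 (3.58 ± 0.467) came next with overlapping libraries, then TAP1 (2.37 ± 0.430), NLRC5 (0.377 ± 0.0337) and PSMB9 (0.120 ± 0.0563). In SW480 with empty vector HLA-C led on this scale with 72.7 ± 8.41 CPM per kilobase. HLA-B (33.7 ± 7.21) and B2M (32.2 ± 2.57) overlapped behind it, and HLA-E (16.6 ± 2.11) came next. TAP2, TAPBP and TAP1 followed with neighbours overlapping (9.57 ± 1.01, 8.87 ± 2.40 and 6.06 ± 1.5), and PSMB9 (2.57 ± 1.08) stood above NLRC5 (0.382 ± 0.105). The per-kilobase scale uses the exon length of the deposited table, the union of all listed exons, and assumes that all exons are equally covered. These lengths were 6079 bases for B2M, 3338 for PSMB9, 3051 for HLA-B and 2507 for HLA-C. Genes expressed as transcripts much shorter than this union are placed too low, so the order between genes depends on the annotation. Before division by length, B2M had a mean of 196 CPM and HLA-C of 182 CPM in SW480 with empty vector.

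Balances between partners follow from these levels and are given without a test. Their size depends on the exon lengths used, while the same lengths enter both lines. B2M stood at 7.02 to 8.43 times the summed per-kilobase level of HLA-B and HLA-C in the 6 COLO320DM libraries, and at 0.277 to 0.384 times in the 6 SW480 libraries. HLA-C stood at 0.833 to 1.05 times HLA-B in COLO320DM and at 1.98 to 2.52 times in SW480. TAP2 over TAP1 overlapped between the lines (1.40 to 1.79 against 1.37 to 1.96).

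On the per-kilobase scale, the immunoproteasome subunits stood at a small part of the subunits they replace in both lines. The size of that part depends on the exon lengths used. PSMB9 stood at 0.0710 to 0.311% of PSMB6, the subunit it replaces, in COLO320DM and at 1.56 to 4.64% in SW480. PSMB8, which replaces PSMB5, stood at 0.0863 to 0.325% of it in COLO320DM and at 5.36 to 10.6% in SW480. PSMB10 stood at 7.79 to 9.55% of PSMB7 in COLO320DM and at 11.3 to 15.9% in SW480. For all 3 subunits the lines did not overlap.

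**Figure D3:**
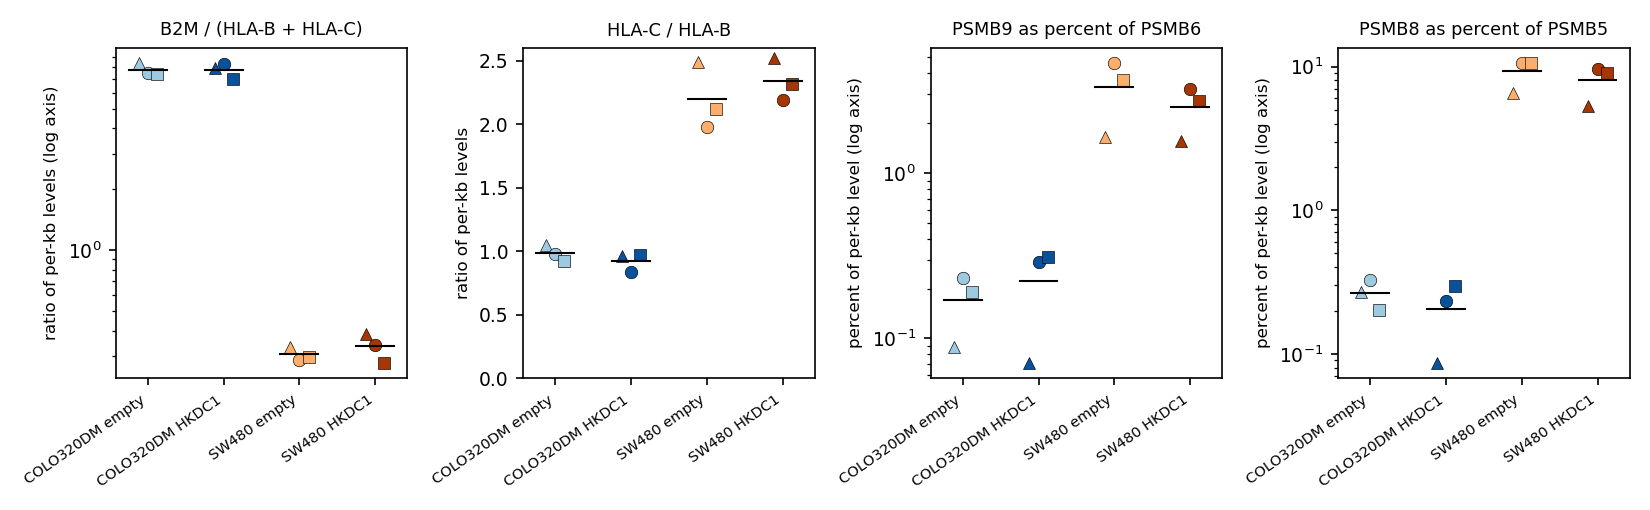
Ratios of per-kilobase levels in each library by group (triangle, circle and square for replicates 1, 2 and 3, bar for the group mean); the HLA-C panel has a linear axis from 0, and the others have log axes, with PSMB9 and PSMB8 as percentages. COLO320DM has more B2M relative to HLA-B and HLA-C (7.02 to 8.43 times against 0.277 to 0.384 times), and SW480 has the higher HLA-C, PSMB9 and PSMB8 ratios.

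The rest of the pathway was followed in lists of named genes, with empty vector and the same test. The background for every list count here and below is 37.3% of all genes higher and 34.3% lower in SW480. The counts describe the lists and were not tested against that background. Of 8 other class I and class I-like genes tested, 2 were higher and 5 lower in SW480. The higher ones were the stress-induced ligands MICA (0.101 ± 0.0575 CPM in COLO320DM, 13.2 ± 1.48 in SW480, n = 3; log2 6.98, adjusted p = 2.85e-10) and MICB (1.15 ± 0.510 and 16.3 ± 3.95 CPM; log2 3.82, adjusted p = 2.02e-07). MR1, which presents vitamin B metabolites (log2 −1.51, adjusted p = 0.00343), and FCGRT, the neonatal Fc receptor (log2 −1.38, adjusted p = 1.13e-06), were among the lower ones. Of the 4 other immunoproteasome and PA28 genes, 3 were higher and none lower. PSMB8 went from 1.09 ± 0.229 to 20.6 ± 4.83 CPM (log2 4.24, adjusted p = 1.26e-07), while PSMB10 (log2 0.44) and PSME2 (log2 0.24) differed by little, and PSMB10 was not called in the plasmid libraries (log2 0.23, adjusted p = 0.168). Of the constitutive catalytic subunits, PSMB5 (log2 −0.88) and PSMB7 (−0.30) were lower and PSMB6 (0.19) higher in SW480.

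Of 10 genes for peptide trimming, loading and glycoprotein quality control, 5 were higher and 2 lower in SW480. The glycoprotein folding sensor UGGT1 was lower (log2 −1.84, adjusted p = 6.26e-08). The tapasin relative TAPBPL (1.08), the trimming peptidase ERAP2 (0.90) and the chaperone calnexin, CANX (0.62), were higher, with adjusted p of 7.18e-05, 4.77e-05 and 0.00182. Of 6 stress ligands of natural killer cells, 4 were higher and 2 lower. RAET1L (log2 3.56), ULBP1 (2.83) and ULBP3 (0.49) were higher and ULBP2 (−1.17) lower.

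Of 12 factors known to act on class I promoters, 5 were higher and 4 lower in SW480, near the background of 37.3% and 34.3%. IRF1, an interferon-induced activator, stood at 3.13, 3.24 and 2.80 CPM in the empty-vector libraries of COLO320DM, against 32.7, 94.7 and 88.6 CPM for SW480. Every SW480 library was above every COLO320DM library (log2 4.56, SE 0.42, adjusted p = 4.5e-07). Of the RFX complex, RFXAP (log2 −1.54) and RFX5 (−0.92) were lower in SW480 and RFXANK (0.95) higher. Among 11 genes of interferon receptors and signalling, 7 were higher and 4 lower. IFNAR1 (log2 1.56), IFNAR2 (1.14) and JAK1 (1.09) were higher, and IRF9, the DNA-binding part of the interferon-activated ISGF3 complex (−1.18), was lower. Of 8 class II genes tested, 6 were higher and 2 lower. HLA-DQB1 had 4, 0 and 1 counts in COLO320DM and 558 to 957 in SW480 with empty vector (log2 8.87, adjusted p = 2.47e-09), a fold whose size depends on the prior count. HLA-DRA had 0 counts in all 6 COLO320DM libraries and 19 to 51 in those of SW480. CD74, the invariant chain (log2 1.39), and HLA-DMA (0.85) were higher. CIITA, the class II transactivator and a relative of NLRC5, was lower (log2 −0.62, adjusted p = 2.91e-05).

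Whether HKDC1 overexpression changed class I presentation was examined within each line. No member passed the test in COLO320DM, in SW480 or in the difference between the lines (0 of 9 in each), beside 0.00844%, 0.0127% and 0.00844% of all genes. At an unadjusted p below 0.05 the counts were also 0 of 9 in each, beside 312, 356 and 379 of all genes. These are 1.32%, 1.5% and 1.6% of all genes, each below the nominal 0.05, so 0 of 9 says little here. DESeq2 and limma-voom called no member either. In COLO320DM the log2 fold changes of plasmid over empty vector ran from −0.08 for HLA-C to 0.35 for PSMB9, 6 above 0 and 3 below, with a median of 0.03 beside 0.00 for all genes. In SW480 they ran from −0.27 for PSMB9 to 0.06 for B2M, with 8 of 9 below 0 and a median of −0.10 beside 0.00 for all genes. The libraries of the plasmid and empty-vector groups overlapped for every member in both lines. The share of all genes with such an overlap was not counted.

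Intervals from the fit without a replicate block are given for all 9 members, COLO320DM first and SW480 second. For B2M the 95% interval of plasmid over empty vector was 0.851 to 1.11-fold in COLO320DM and 0.911 to 1.19-fold in SW480. For HLA-C it was 0.780 to 1.15-fold and 0.820 to 1.17-fold, and for HLA-B 0.774 to 1.30-fold and 0.711 to 1.16-fold. For HLA-E it was 0.809 to 1.28-fold and 0.731 to 1.16-fold. TAP2 was bounded at 0.921 to 1.31-fold and 0.803 to 1.13-fold, and TAP1 at 0.776 to 1.46-fold and 0.685 to 1.27-fold. NLRC5 was bounded at 0.723 to 1.32-fold and 0.721 to 1.32-fold. TAPBP was bounded at 0.800 to 1.48-fold and 0.658 to 1.21-fold. PSMB9 was bounded at 0.460 to 1.49-fold in SW480. In COLO320DM, where it had 7 to 25 counts a library, its interval was 0.527 to 3.09-fold, and 0.860 to 1.94-fold with the replicate number as a block. With that block in SW480, the intervals of HLA-B (0.839 to 0.994-fold) and TAPBP (0.817 to 0.984-fold) lay below 1. Neither passed after adjustment (edgeR adjusted p 0.446 and 0.384). Blocked intervals of the other members in SW480, and of all members in COLO320DM, reached or spanned 1.

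**Figure D4:**
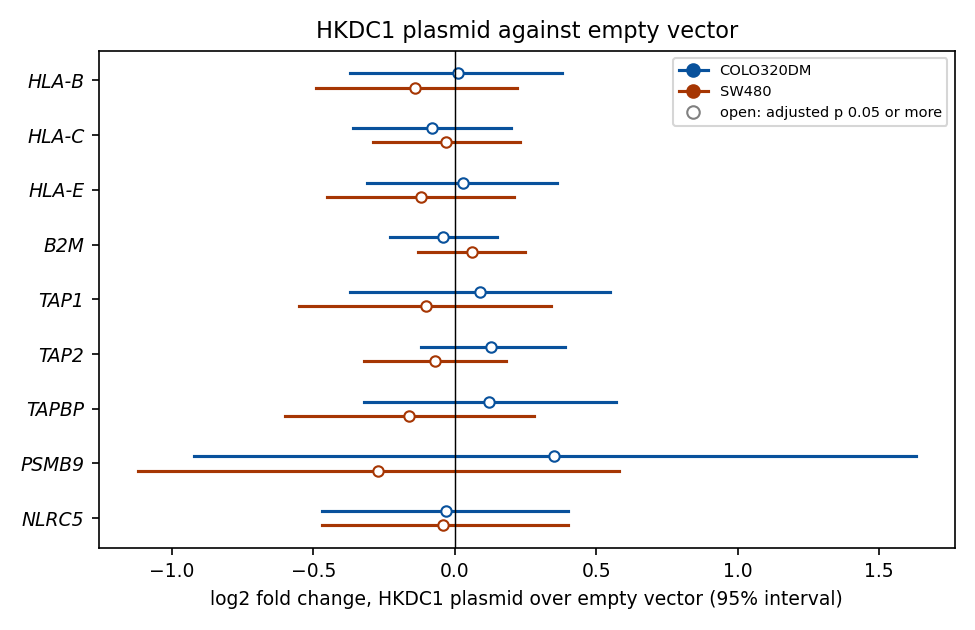
Fitted log2 fold change of HKDC1 plasmid over empty vector for each gene (x axis) with its 95% interval, in COLO320DM and in SW480; all points are open because no adjusted p was below 0.05. Every interval of this fit, which has no replicate block, crosses 0, and PSMB9 has the widest in both lines.

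A comparison within same-numbered pairs gave the same calls. With the replicate number as a block, 0 of 9 members passed in COLO320DM (adjusted p 0.932 to 1), in SW480 (0.384 to 0.988) and in the difference between the lines (0.424 to 1), beside 0.076%, 0.76% and 0.0422% of all genes. TAPBP was lower with the plasmid in 3 of 3 SW480 pairs, as were 14.4% of all genes, by log2 values of −0.11, −0.23 and −0.12, and HLA-B by −0.06, −0.21 and −0.13. In the blocked edgeR fit in SW480, these 2 of 9 members had an unadjusted p below 0.05, beside 9.96% of all genes, and their adjusted p was 0.384 and 0.446. In the blocked difference between the lines, TAPBP (edgeR unadjusted p = 0.00538, adjusted 0.424) and TAP2 (0.0404, adjusted 0.637) were below 0.05, beside 7.6% of all genes. In COLO320DM the count was 0 of 9, beside 5.46% of all genes. HLA-E and TAP1 were also lower in 3 of 3 SW480 pairs, while TAP1, TAP2 and TAPBP were higher in 3 of 3 COLO320DM pairs, as were 13.3% of all genes. Among the listed pathway genes, IRF1 in SW480 was the only one called in either line, and only with the block. Its levels were 32.7, 94.7 and 88.6 CPM with empty vector and 29.9, 77.0 and 66.1 CPM with the plasmid, lower in 3 of 3 pairs. The log2 fold change was −0.29 with the block (SE 0.07, adjusted p = 0.0295) and −0.32 without it (SE 0.35, adjusted p = 1 by edgeR).

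Replicate 1 was lower than the mean of replicates 2 and 3 for 9 of 9 members in all 4 groups. The median log2 ratio of replicate 1 over that mean was −0.31 and −0.19 in COLO320DM (empty vector, then plasmid) and −0.58 and −0.40 in SW480. Over all genes it was within 0.02 of 0, and 49.8 to 51.8% of genes were lower. This is a description with no test, since the labels name no batch and give only the replicate numbers. PSMB9 had log2 ratios of −1.07 and −1.56 in COLO320DM and −1.21 and −0.86 in SW480, and TAPBP had −0.75 and −0.68 in SW480. In both plasmid groups of a line, PSMB9 was at least 1.5 times lower in replicate 1 in COLO320DM, beside 2.16% of all genes, and TAPBP and PSMB9 were in SW480, beside 9.35%. None was 1.5 times higher, beside 0.798% and 3.48%.

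B2M had log2 ratios of −0.04 to −0.19. IRF1 had ratios of −1.48 and −1.25 in SW480 but 0.05 and 0.24 in COLO320DM, and PSMB8 had −0.61 and −0.83 in SW480 and −0.06 and −1.29 in COLO320DM. Colon epithelial markers moved the other way in SW480, where 6 of 7 were higher in replicate 1 and their summed level was 8815, 6291 and 6712 CPM with empty vector and 8513, 6291 and 7158 CPM with the plasmid. In COLO320DM 2 or 3 of 7 were higher, with sums of 1577, 1729 and 1761 CPM and of 1790.2, 1724 and 1743 CPM. Of the haematopoietic markers, 1 or 2 of 9 were higher in replicate 1 in each group. Of the 4 fibroblast markers, none was higher in replicate 1 in the COLO320DM groups, and 1 and 2 were in SW480. The part of these markers in the result was not tested.

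**Figure D5:**
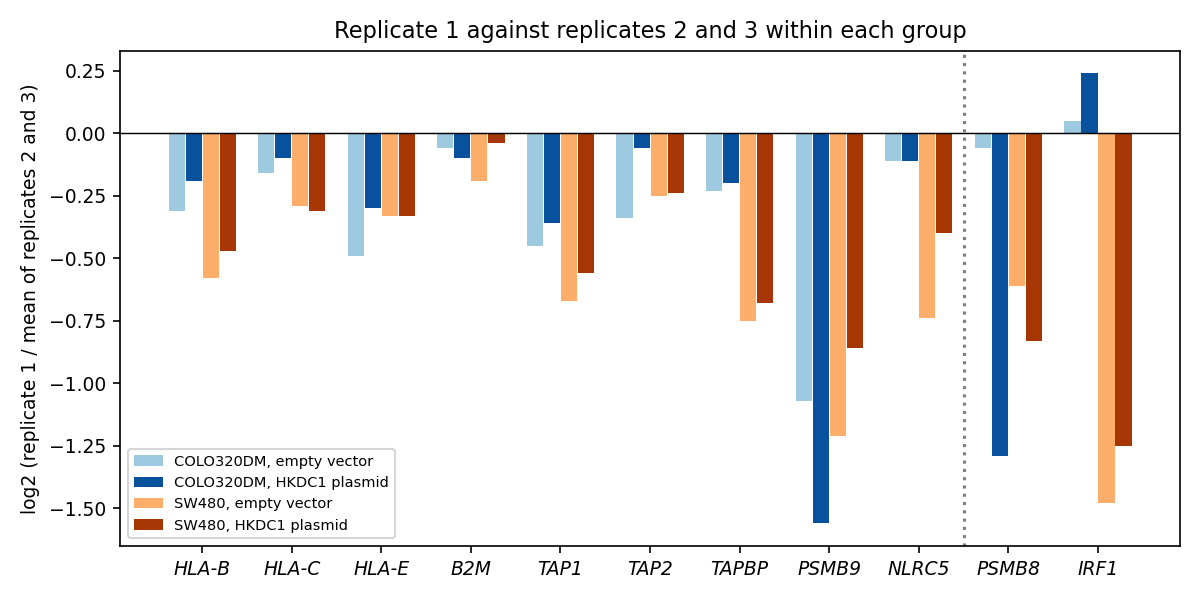
Log2 ratio of replicate 1 over the mean of replicates 2 and 3 in each group (y axis, 0.1 CPM added to both), for the 9 genes and, right of the dotted line, PSMB8 and IRF1. All bars of the 9 genes lie below 0, and IRF1 lies below 0 in SW480 only.

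The genes most like a member across the 12 libraries, after subtracting each line's mean, were largely not genes of this pathway. For HLA-B they were ENSG00000263620 (Pearson r 0.987), ZNF414 (0.984) and FBXW4 (0.984) among 11561 genes ranked, and TAPBP came in place 55 (0.969) and TAP1 in place 248 (0.938). For TAP1 they were ZNF48 (0.986), PHF1 (0.982) and ENSG00000258830 (0.980). For NLRC5 they were NBR2 (0.977), YKT6 (0.971) and SCRN1 (0.963). The 12 points share their libraries, and the departure of replicate 1 enters every one of these values.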

How the data were processed

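RNA was measured in 12 libraries, 3 for each line and plasmid. The deposited values are raw counts per gene in 1 table, with an Ensembl identifier, position and exon length per gene. Poly-A selection and random priming are given per the labels' protocols, with no step that marks strand. HISAT2 2.1.0, limma and GRCh38 are named per the submitters' processing notes. Which program counted the reads, with which annotation and strand option, is not given in the sources used here. In all, 58516 identifiers were found in GENCODE 29.

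All libraries entered 1 model of 4 group means in edgeR 4.0.16 (R 4.3.3; filterByExpr with minimum count 10 and minimum total 15, TMM, robust quasi-likelihood F tests, 8 residual degrees of freedom, biological coefficient of variation 0.157). Benjamini-Hochberg adjusted p below 0.05 was called. SE is the absolute log2 fold change over the root of F, and intervals are 95%. CPM are scaled by TMM. The fit was tested on simulated data with a smaller spread, no difference between the lines with empty vector and no shift of replicate 1. These data differ on each point, so that test does not cover them. Intervals cover the spread between libraries only.

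The members and lists were chosen with earlier results of these data known. All members were described. From each list the text names up to 4 genes of at least 1 CPM in a group, by size of the line difference among those called, and every gene called in a plasmid comparison. For HLA-B, TAP1 and NLRC5 the 3 genes of highest Pearson r are named (log2 CPM, prior count 2, genes of at least 5 CPM in both lines). CIITA and the partners in ratios were named outside this rule after their values were seen. Some genes of the lists are not reported here.

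Same-numbered libraries correlated in their deviations from the group means at 0.64, 0.40 and 0.31 in COLO320DM and 0.88, 0.70 and 0.53 in SW480 (genes of at least 1 CPM), each over 0.1, so the numbers were taken to pair the samples and a replicate block was fitted (4 residual degrees of freedom). The pairing comes from the data, since the labels give only numbers, and replicates 2 and 3 correlated about as well across numbers. A chi-squared test of counts gave 3.18 to 10.1 per degree of freedom between replicates 2 and 3 of a group and 24.5 to 82.9 for replicate 1, so none was counted as a repeat. Alternatives were RLE size factors, library totals, DESeq2 1.42.0, limma-voom (limma 3.58.1), no count filter, the compared groups alone, the block, and leaving out each library or pair.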

Additional observations from a re-analysis of the deposited data

Results flagged for a closer look

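Plasmid values of TAP1 and TAPBP lay above empty vector in 3 of 3 COLO320DM pairs and below it in 3 of 3 SW480 pairs. All pairs of the lines were opposite, in either order, for 3.79% of all genes. The nearest TAP1 pairs differed by 0.02 and −0.02 on the log2 scale. Neither gene passed the test in either line, with edgeR adjusted p of 0.957 and 0.762 for TAP1 and 0.945 and 0.384 for TAPBP with the replicate block. The difference between the lines did not pass it either. It was −0.19 on the log2 scale for TAP1 (SW480 effect minus COLO320DM effect; edgeR adjusted p = 1, with the replicate block 0.711) and −0.28 for TAPBP (adjusted p = 1, with the block 0.424).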

How the results depend on the processing

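With empty vector the 9 line values kept direction and side of the threshold in 162 of 171 recomputations, and with the plasmid in 165 of 171. The exceptions were TAPBP, given above, and NLRC5. NLRC5 with empty vector was −0.01 with limma-voom and −0.05 with library totals, and −0.06 with library totals in the plasmid libraries. In the plasmid comparisons no member was called under any alternative run. In COLO320DM, library totals gave −0.00 for HLA-E and −0.02 for HLA-B. The NLRC5 difference between the lines was 0.01 with the replicate block and 0.03 with limma-voom. These values lie near 0, and the cause of each sign change was not tested.

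The replicate block moved the genes called from 2 to 18 in COLO320DM, from 3 to 180 in SW480 and from 2 to 10 in the difference between the lines, and it changed no member's call. Without each pair in turn (pairs 1, 2 and 3) it gave 12, 15 and 31 genes in COLO320DM, 543, 59 and 135 in SW480, and 49, 19 and 85 in the difference. Without SW480 empty-vector replicate 1 the unblocked count in SW480 was 5. No block could be fitted between the lines. With library totals, 4 members in SW480 (HLA-B and TAP1 besides TAPBP and PSMB9) were at least 1.5 times lower in replicate 1, beside 12.8% of all genes.

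Values of the line difference with empty vector without each library changed sign within ranges of −0.12 to 0.24 for NLRC5. Values of the line difference with the plasmid without each library changed sign within ranges of −0.01 to 0.31 for TAPBP and −0.10 to 0.13 for NLRC5. Values of the plasmid effect in COLO320DM without each library changed sign within ranges of −0.12 to 0.12 for HLA-E, −0.09 to 0.08 for HLA-B, −0.04 to 0.21 for TAP1 and −0.07 to 0.04 for NLRC5. Values of the plasmid effect in COLO320DM with the block and without each pair changed sign within ranges of −0.02 to 0.10 for HLA-E, −0.14 to 0.01 for HLA-C, −0.03 to 0.04 for HLA-B and −0.06 to 0.01 for NLRC5. Values of the plasmid effect in SW480 without each library changed sign within ranges of −0.14 to 0.06 for HLA-C, −0.17 to 0.00 for TAP2, −0.31 to 0.06 for TAP1, −0.39 to 0.03 for TAPBP, −0.02 to 0.10 for B2M and −0.26 to 0.10 for NLRC5. Values of the plasmid effect in SW480 with the block and without each pair changed sign within ranges of −0.01 to 0.15 for B2M and −0.14 to 0.03 for NLRC5. Values of the difference between the lines without each library changed sign within ranges of −0.07 to 0.14 for HLA-C and −0.23 to 0.13 for NLRC5. Values of the difference between the lines with the block and without each pair changed sign within ranges of −0.04 to 0.08 for HLA-C and −0.11 to 0.09 for NLRC5.

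Library totals, replicate blocks without a pair and the fit without replicate 1 of every group were chosen after seeing the data. Summing alternate-locus entries was not run, because the table holds 1 entry per member. PSMB9 had 7 to 25 counts a library in COLO320DM, where its plasmid interval narrowed from 0.527 to 3.09-fold to 0.860 to 1.94-fold with the block.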
